A study of Mus musculus with 6 samples.

Results

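The 10 genes described here, S100a8, S100a9, Mpo, Elane, Prtn3, Ctsg, Ltf, Camp, Ngp and Mmp8, are transcribed at high levels in neutrophils or their precursors and were read in sorted B lineage cells as a check of other cells in the sort. They were chosen by gene symbol, and all 10 of 10 had a probe set, 1 each, among 19938 measured genes. The cells came from RAG2-GFP/129Sve mice of 17 to 25 days, in which a green fluorescent protein reports the recombinase gene Rag2. GFP+ cells were sorted from small-intestinal lamina propria, a layer of connective tissue beneath the epithelium, and from bone marrow, where B cells form. Each tissue gave 3 independent pools, 1 array each, with 8 to 12 mice used per experiment, and all groups share the genotype and regular specific-pathogen-free housing. Other cells that carry or have recently carried the reporter, such as early lymphoid progenitors and developing T cells, are not told apart from B lineage cells by the fluorescence alone, and no further gate is given in the sources used here.

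Neutrophils form in the bone marrow and fill their granules in a fixed order. Azurophil granules, made first in promyelocytes, hold myeloperoxidase (Mpo) and the serine proteases neutrophil elastase (Elane), proteinase 3 (Prtn3) and cathepsin G (Ctsg). Specific granules, made later in myelocytes and metamyelocytes, hold lactoferrin (Ltf), the cathelicidin antimicrobial peptide (Camp), neutrophilic granule protein (Ngp) and the collagenase Mmp8. S100a8 and S100a9 encode the 2 chains of calprotectin, a calcium and zinc binding protein that fills the cytosol of mature neutrophils and is also made by monocytes.

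The values were log2 values made by robust multi-array averaging (RMA), with medians between 5.34 and 5.48 over all probe sets of an array, and carry no detection calls. The number of arrays limits the precision. Lamina propria pools 1 and 2 stood apart. They correlated across genes at r = 0.766 to 0.832 with the other 4 arrays, whereas pool 3 correlated at 0.954 to 0.966 with the marrow arrays. The sort held B lineage RNA in both tissues. Ebf1, a transcription factor of early B cells, read 10.36, 10.57 and 10.61 in the lamina propria pools and 10.73, 10.98 and 10.51 in the marrow pools, and Rag1 read 9.75, 9.68 and 10.47 against 10.92, 10.99 and 11.15. Cd79a, a signalling chain of the B cell receptor, read 7.32, 7.67 and 7.58 against 8.17, 8.00 and 6.27. Rag2 itself read 5.67, 5.75 and 6.06 in the lamina propria pools, below the 7.76, 8.49 and 8.28 of the marrow pools.

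The calprotectin pair carried the largest differences of the 10 genes, with lower means in the lamina propria and a wide spread among the marrow pools. S100a9 read 5.57, 5.63 and 5.30 in lamina propria pools 1, 2 and 3, against 6.56, 9.26 and 6.68 in bone marrow pools 1, 2 and 3. Every lamina propria pool lay below every marrow pool, and marrow pool 2 lay far above the other marrow pools. The lamina propria averaged 5.50 ± 0.18 and the marrow 7.501 ± 1.53 (SD, n = 3 each), and the log2 difference was -2.00 (95% interval -3.59 to -0.42), which is 4.005-fold lower. The difference did not pass over all genes (limma, Benjamini-Hochberg adjusted p = 0.356). Without marrow pool 2 it was -1.12 (adjusted p = 0.600).

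S100a8 read 4.10, 4.59 and 4.05 in lamina propria pools 1, 2 and 3, against 5.27, 7.48 and 4.08 in the marrow pools. Marrow pool 3 lay inside the lamina propria range, so the tissues overlapped, and marrow pool 2 was again the highest array. Means were 4.24 ± 0.30 for lamina propria pools and 5.61 ± 1.73 for marrow pools (SD, n = 3 each). The difference was -1.36 (95% interval -3.16 to 0.43, limma adjusted p = 0.363), and -0.43 without marrow pool 2 (adjusted p = 0.620) but -2.13 without marrow pool 3. In bulk RNA, fewer cells of a type and less RNA per cell cannot be told apart.

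**Figure D1:**
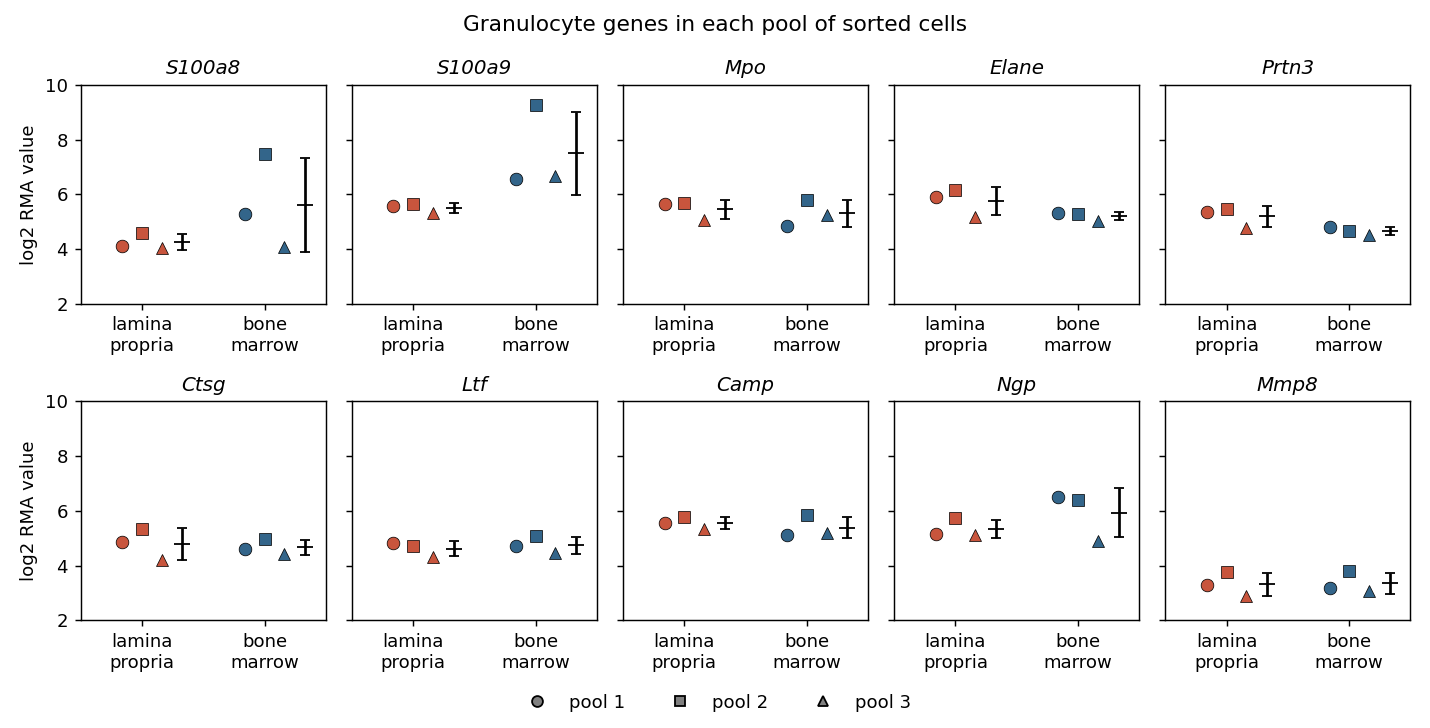
Log2 RMA values of the 10 granulocyte genes in each pool, lamina propria (red) left of bone marrow (blue), with the pool shown by marker shape and the mean ± SD of the 3 pools as a bar. S100a8 and S100a9 reach 7.48 and 9.26 in bone marrow pool 2, and Ngp separates marrow pools 1 and 2 from pool 3.

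Among the specific granule genes Ngp, a cathelicidin-related protein, came closest to this pattern. It read 5.15, 5.73 and 5.12 in the lamina propria pools, against 6.51, 6.40 and 4.89 in the marrow pools. Marrow pools 1 and 2 lay above all lamina propria pools, but marrow pool 3 lay below them. The means were 5.33 ± 0.34 and 5.93 ± 0.91 (SD, n = 3 each), and the difference of -0.60 (95% interval -1.65 to 0.45) did not pass (limma adjusted p = 0.421). It was -1.12 without marrow pool 3 and -0.31 without marrow pool 1.

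The 250 bases before the annotated start of these 3 genes are shown because they are the members with a marrow pool set apart by over 1 log2 unit. They are RefSeq sequences of build GRCm38.p6, written along the strand of the gene, and all 10 genes matched 1 sequence each. Capitals mark TATAAA, the TATA box, and TTNNGNAA, a pattern bound by C/EBP factors, the regulators of granulocyte genes, searched on both strands.
S100a8 (chr3:90668821-90669070, plus strand): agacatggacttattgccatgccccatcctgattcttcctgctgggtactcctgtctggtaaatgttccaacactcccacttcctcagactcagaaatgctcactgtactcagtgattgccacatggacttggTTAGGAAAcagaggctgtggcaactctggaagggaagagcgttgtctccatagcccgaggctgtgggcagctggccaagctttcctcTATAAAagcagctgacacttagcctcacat
S100a9 (chr3:90695722-90695971, minus strand): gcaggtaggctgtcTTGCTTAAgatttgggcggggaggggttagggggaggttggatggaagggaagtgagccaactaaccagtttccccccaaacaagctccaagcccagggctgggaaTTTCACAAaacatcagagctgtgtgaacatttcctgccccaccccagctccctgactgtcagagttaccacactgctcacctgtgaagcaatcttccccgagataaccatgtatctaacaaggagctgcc
Ngp (chr9:110419558-110419807, plus strand): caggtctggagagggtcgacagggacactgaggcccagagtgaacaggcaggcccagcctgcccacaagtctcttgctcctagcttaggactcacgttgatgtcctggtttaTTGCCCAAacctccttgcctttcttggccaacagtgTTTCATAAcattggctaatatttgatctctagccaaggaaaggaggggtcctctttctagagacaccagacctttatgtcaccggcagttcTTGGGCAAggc
S100a8 holds TATAAA from 30 to 25 bases before its start and a C/EBP pattern from 117 to 110 bases before it. S100a9 holds 2 C/EBP patterns and no TATAAA in this window, and Ngp holds 3 C/EBP patterns, the nearest from 11 to 4 bases before the start. The C/EBP pattern was found in 5 of the 10 members and in 36.8% of all 32851 promoter windows of this length, and TATAAA in 2 of 10 and in 12.4%. A match is a run of letters, not a measured binding site.

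The other specific granule genes differed between the tissues by less than the spread of their pools. Camp read 5.57, 5.78 and 5.34 in the lamina propria pools and 5.13, 5.85 and 5.18 in the marrow pools, a difference of 0.18 (95% interval -0.44 to 0.79). Ltf, which binds iron, read 4.82, 4.73 and 4.31 against 4.71, 5.07 and 4.45, a difference of -0.12 (95% interval -0.71 to 0.47). Mmp8 read 3.29, 3.75 and 2.90 against 3.19, 3.78 and 3.06, a difference of -0.03 (95% interval -0.74 to 0.68). In all 3 genes the tissues overlapped and marrow pool 2 was the highest array of the 6. Limma adjusted p were 0.649 for Camp, 0.740 for Ltf and 0.949 for Mmp8. The signs for Ltf and Mmp8 turned when marrow pool 2 was left out, to 0.041 and 0.19, and when lamina propria pool 3 was left out, to 0.034 and 0.18.

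The azurophil granule genes had small positive differences, led by the neighbouring protease genes Elane and Prtn3. Elane read 5.89, 6.17 and 5.18 in the lamina propria pools, against 5.30, 5.27 and 5.04 in the marrow pools. Prtn3 read 5.35, 5.46 and 4.77 in the lamina propria pools, against 4.81, 4.67 and 4.53 in the marrow pools. In both genes lamina propria pools 1 and 2 lay above all marrow pools and pool 3 lay within the marrow range. Elane averaged 5.75 ± 0.51 and 5.20 ± 0.14, and Prtn3 5.19 ± 0.37 and 4.67 ± 0.14 (SD, n = 3 each). The differences were 0.55 (95% interval -0.13 to 1.22, limma adjusted p = 0.359) and 0.52 (95% interval -0.05 to 1.10, limma adjusted p = 0.356).

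Mpo, which makes hypochlorous acid from peroxide, read 5.64, 5.68 and 5.05 in the lamina propria pools and 4.84, 5.79 and 5.25 in the marrow pools. Ctsg read 4.86, 5.34 and 4.19 against 4.60, 4.98 and 4.43. The tissues overlapped in both, with differences of 0.16 (95% interval -0.56 to 0.88) and 0.12 (95% interval -0.64 to 0.89) and limma adjusted p of 0.723 and 0.793. Mpo was highest in marrow pool 2 and Ctsg in lamina propria pool 2. The sign for Mpo turned without marrow pool 1 (-0.068), and that for Ctsg turned without lamina propria pool 2 (-0.15) and after quantile normalization (-0.045).

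The 4 azurophil promoters are shown around a shared run of letters, AGGAAGT in capitals, a core bound by ETS factors such as PU.1, which myeloid and B lineage cells both use. The motif was chosen after the letters were seen. Each line gives the motif with 20 bases on both sides, along the strand of the gene, from the same RefSeq build.
Mpo (chr11:87793541-87793587, plus strand): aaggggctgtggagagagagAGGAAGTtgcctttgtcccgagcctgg
Elane (chr10:79886208-79886254, plus strand): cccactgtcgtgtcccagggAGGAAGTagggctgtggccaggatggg
Prtn3 (chr10:79879553-79879599, plus strand): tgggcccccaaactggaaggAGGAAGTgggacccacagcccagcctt
Ctsg (chr14:56102754-56102800, minus strand): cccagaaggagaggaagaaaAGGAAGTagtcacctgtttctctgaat
The run starts 223 bases before the start of Mpo, 84 before Elane, 94 before Prtn3 and 206 before Ctsg, and in all 4 lies on the strand of the gene. S100a8 and Mmp8 hold it on the other strand, which makes 6 of 10 members, and 7.69% of all promoter windows hold it on either strand. No match of 1 motif overlapped a match of another in the 10 windows.

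Over the 10 genes, limma at an adjusted p under 0.05 called 0 higher and 0 lower in the lamina propria, with 0% of all genes called higher and 0% called lower. At an unadjusted p under 0.05 only S100a9 passed (limma, unadjusted p = 0.020), 1 of 10 beside 13.7% of all genes. S100a9 was also the 1 member without overlap, lower in the lamina propria, beside 7.27% of all genes lower and 14.8% higher without overlap. Of the 10, 5 differences were positive and 5 negative, beside 67.6% of all genes with a positive difference. The median difference was 0.05, against 0.22 over all genes, and only Elane and Prtn3 lay above that median of all genes. The mean was -0.26, opposite in sign to the median. Without S100a8, S100a9 and Ngp, chosen after their values were seen, the median of the other 7 was 0.16.

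The spread of the calprotectin pair lay among the marrow pools, as the plot of pool differences shows. In marrow pool 2, S100a8 stood 2.80 log2 units (6.98-fold) and S100a9 2.64 log2 units (6.24-fold) above the mean of the other marrow pools. These were ranks 4 and 7 of 19938 genes by that difference. A single pool has no replicate, so this carries no test. At least 1 log2 unit above the mean of the others, marrow pool 2 held 2 of 10 members, S100a8 and S100a9, beside 0.993% of all genes. Members that far below numbered 0, beside 0.476%. The genes ranked ahead of S100a8 were Xist, Mir32 and Mir99a, and Mir18 and Cd69 stood between S100a8 and S100a9, named after their values were seen. Xist, the RNA of the inactive X chromosome, had its rank through marrow pool 1, at 3.45, against 10.05 and 9.91 in marrow pools 2 and 3. The Y-linked gene Eif2s3y, likewise named after its values were seen, read 7.85 in marrow pool 1, against 2.84 and 2.97 in pools 2 and 3.

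**Figure D2:**
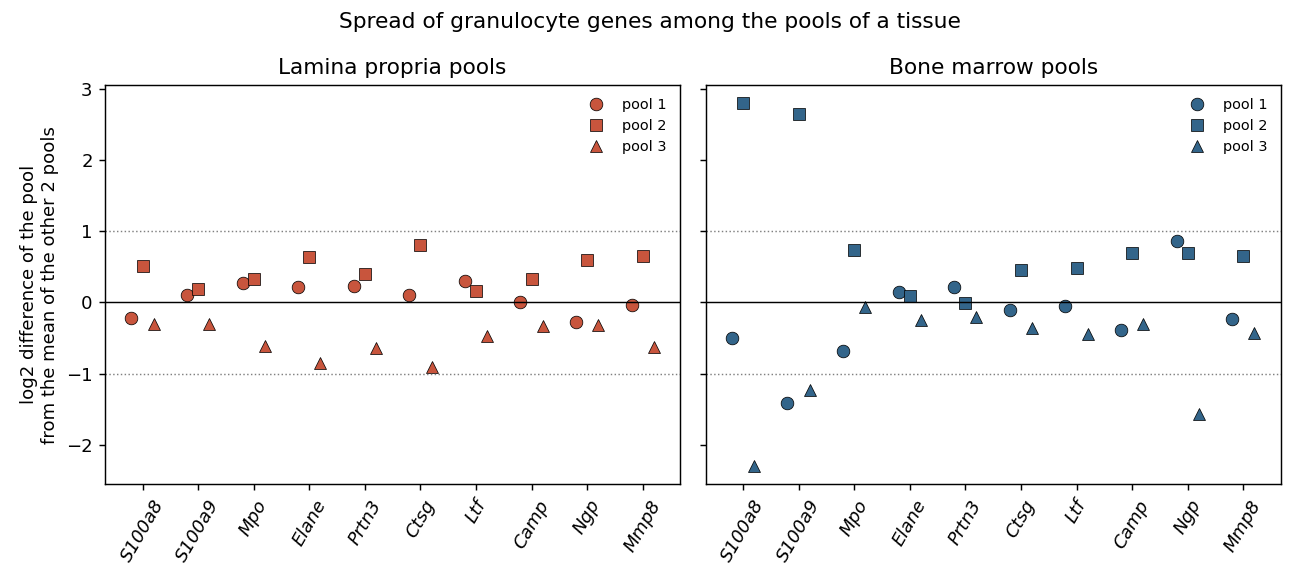
Log2 difference of each pool from the mean of the other 2 pools of its tissue, for the 10 granulocyte genes, lamina propria left and bone marrow right, with dotted lines at 1 log2 unit either way. S100a8 and S100a9 stand at 2.80 and 2.64 in bone marrow pool 2, while no lamina propria pool passes 1 log2 unit.

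The remaining members were less far apart in marrow pool 2. Against the mean of the other marrow pools, Mpo stood at 0.74, Ngp at 0.70, Camp at 0.69, Mmp8 at 0.66 and Ltf at 0.49. Ctsg stood at 0.46, Elane at 0.10 and Prtn3 at -0.00. Of the 10, 7 had their highest marrow value in pool 2, beside 31.2% of all genes. Marrow pool 3 was the lowest marrow pool for 7 of the 10, beside 39.5% of all genes. In marrow pool 3, 3 members lay at least 1 log2 unit below the mean of the other marrow pools, beside 2.15% of all genes. They were S100a8 at -2.30, Ngp at -1.57 and S100a9 at -1.23, and 0 lay that far above, beside 2.67%. Of the 14 B lineage markers described below, 3 also lay that far below in marrow pool 3, with a median of -0.29 over the list. In each other list described below 0 genes did. In marrow pool 1 the 1 member that far below was S100a9, at -1.41, beside 0.868% of all genes, with 0 that far above, beside 0.662%. S100a9 read 6.56 and 6.68 in marrow pools 1 and 3, against 9.26 in pool 2. Its differences in pools 1 and 3 thus came through pool 2.

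The range over the 3 marrow pools was 3.40 log2 units for S100a8, 2.70 for S100a9 and 1.62 for Ngp, against a median of 0.33 over all genes. Only 0.0752% of genes had a marrow range as large as that of S100a8, 0.226% as large as S100a9 and 1.72% as large as Ngp. The marrow ranges of Elane and Prtn3, at 0.26 and 0.28, were below that median. Summed on the linear scale, the 10 genes gave 273 to 430 in the lamina propria pools, against 415, 1133 and 331 in marrow pools 1, 2 and 3, in arbitrary array units. The sums were also taken without S100a8, S100a9 and Ngp, chosen after their values were seen. They were 265, 303 and 183 in lamina propria pools 1, 2 and 3, against 191, 256 and 182 in the marrow pools. Marrow pool 2 then lay inside the lamina propria range and remained the highest marrow pool.

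Among the lamina propria pools no member stood 1 log2 unit above or below the mean of the others. The shares of all genes at least 1 log2 unit higher there were 2.51%, 2.90% and 13.5% in pools 1, 2 and 3, and those at least 1 log2 unit lower were 7.16%, 8.13% and 3.15%. All 10 members were lowest in pool 3, beside 60.8% of all genes, and 9 of 10 were highest in pool 2, beside 38.0%. These shares are not matched for level. At marrow means from 4 to 6, where most members lay, genes at large also had lower median differences in pool 3 than in pools 1 and 2, as given next. The largest range among these pools was 1.15 log2 units, for Ctsg, and the smallest 0.33, for S100a9. For S100a8, S100a9, Mpo, Ltf, Camp and Ngp the ranges were narrower in the lamina propria than in the marrow, whereas over all genes the median range was wider in the lamina propria, at 0.74 against 0.33.

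The differences of lamina propria pools 1 and 2 moved with the level of a gene. Genes with a marrow mean from 5 to 6, where S100a8, Mpo, Elane, Camp and Ngp lay, had median differences of 0.44, 0.40 and -0.02 from the marrow mean in lamina propria pools 1, 2 and 3. At 4 to 5, where Prtn3, Ctsg and Ltf lay, the medians were 0.52, 0.54 and 0.01. Elane stood 0.69, 0.97 and -0.02 from its marrow mean in the 3 pools, and Prtn3 0.68, 0.79 and 0.10. In pools 1 and 2 both were displaced in the direction of other genes of their level, by more than the median of those genes. The part of this displacement in the result was not tested.

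S100a9 lay among genes with a marrow mean from 7 to 8, whose medians were -1.02, -1.07 and -0.05 in lamina propria pools 1, 2 and 3. It stood at -1.93, -1.87 and -2.20 from its marrow mean. S100a8 stood at -1.51, -1.02 and -1.56 and Ngp at -0.78, -0.20 and -0.81. Both axes of the plot by marrow level hold the marrow mean, so a gene that is high in 1 marrow pool lies further right and lower.

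**Figure D3:**
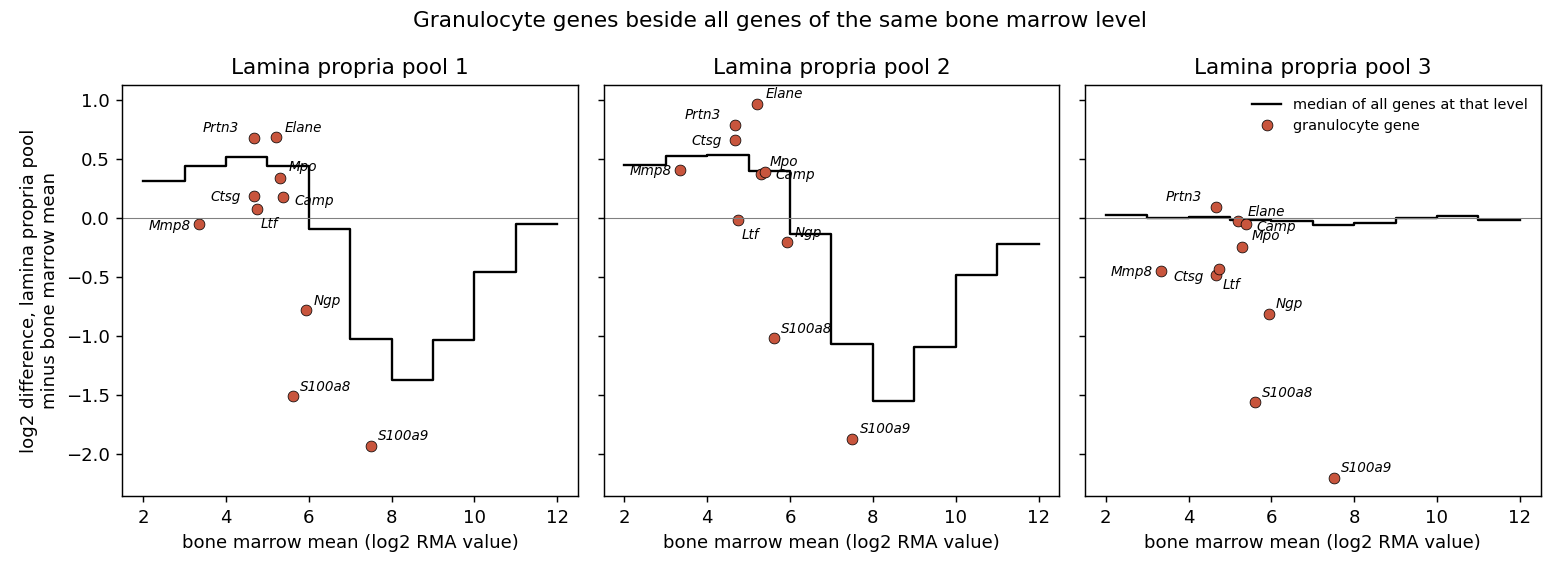
Log2 difference of each lamina propria pool from the bone marrow mean, against the bone marrow mean in log2 RMA values, for the 10 granulocyte genes (points), beside the median of all genes in steps of 1 log2 unit of marrow level (line). In pool 3 the line stays near 0 and S100a9 lies at -2.20, while in pools 1 and 2 Elane and Prtn3 lie between 0.68 and 0.97.

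Among the alternatives run, members were called only where lamina propria pool 3 lost weight. Without lamina propria pool 3, limma called Elane (0.83, adjusted p = 0.0244) and Prtn3 (0.74, adjusted p = 0.0253) higher in the lamina propria, 2 of 10 beside 24.1% of all genes called higher and 12.1% lower. With array weights, where pool 3 had a weight of 0.15, the same 2 genes passed (adjusted p = 0.0404 and 0.0402), beside 16.9% of all genes higher and 11.1% lower. In lamina propria pool 3 alone against the marrow, limma called 0 members, beside 0% of all genes in either direction. Elane then stood at -0.02 and Prtn3 at 0.10, and the median of the 10 was -0.44.

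Other genes of neutrophils were read next to the 10. Of 18 further granule and membrane genes 0 passed over all genes, 15 had a positive difference, beside 67.6% of all genes, and the median was 0.21, against 0.22 over all genes. Olfm4, a specific granule glycoprotein of a neutrophil subset that intestinal stem cells also make, read 4.85, 5.16 and 6.10 in the lamina propria pools, against 4.12, 3.89 and 4.16 in the marrow pools, a difference of 1.31 (95% interval 0.53 to 2.10, limma adjusted p = 0.309). The intervals of Itgam (-0.70), the integrin chain CD11b, Cybb (0.67), the catalytic subunit of the phagocyte oxidase, and Serpinb1a (0.39), an inhibitor of neutrophil proteases, each held 0. Cybb read 7.08 in lamina propria pool 3 and 4.38 to 5.52 in the other arrays. Lyz2, lysozyme of phagocytes, named after its values were seen, likewise read 7.88 in that pool, against 5.16 to 6.94 in the others. Of the 18, 4 stood there at least 1 log2 unit above the mean of the other lamina propria pools, beside 13.5% of all genes. They were Cybb, Olfm4, Lyz2 and Serpinb1a, and 0 lay that far below, beside 3.15%. The median of the 18 there was -0.21, against -0.33 over all genes.

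Of 20 genes of mature neutrophils 17 were measured and 0 passed, with a median difference of 0.39, against 0.22 over all genes, and 15 positive, beside 67.6% of all genes. Il1b, an inflammatory cytokine that macrophages also make, differed by 0.94 (95% interval 0.28 to 1.60, limma adjusted p = 0.344), the chemokine receptor-like gene Ccrl2 by 0.93 and the chemokine Cxcl2 by 0.83. Acod1, an inducible enzyme of activated myeloid cells, differed by 0.38 and G0s2, a lipase inhibitor, by 0.25. Ly6g, the surface marker that defines mouse neutrophils, named after its values were seen, read 3.38, 3.60 and 2.62 in the lamina propria pools and 2.84, 2.63 and 2.84 in the marrow pools. It read below the array median in all 6 arrays and was lowest of the marrow pools in pool 2.

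Marrow pool 2 was the highest marrow pool for 10 of the 18 granule genes and 8 of the 17 mature neutrophil genes, beside 31.2% of all genes. None of either list stood 1 log2 unit above the other marrow pools there, a count near the 0.993% of all genes. The largest such differences, picked after the values were seen, were 0.81 for Chil3, a chitinase-like protein of neutrophil precursors and macrophages, 0.77 for Cxcr2, the receptor that draws neutrophils out of the marrow, and 0.70 for Retnlg. Lcn2, which binds bacterial siderophores, stood at 0.66. The median was 0.24 over the 18 granule genes and 0.08 over the 17 mature neutrophil genes, against 0.67 over the 10 members and -0.00 over all genes.

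All 8 transcription factors of the granulocyte programme were measured and 0 passed, with a median difference of 0.41. Klf4 differed by 0.73 (95% interval 0.21 to 1.25), Cebpd by 0.56 and Cebpa, which starts the programme, by 0.51 (95% interval 0.07 to 0.95). Cebpe, which drives specific granule genes, read 6.91, 6.55 and 6.20 in the lamina propria pools and 6.09, 6.34 and 6.21 in the marrow pools, a difference of 0.34. Runx1, which B cell progenitors also use, differed by -0.28.

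Markers of other cell types were read in the same way. Of 16 macrophage and monocyte markers 14 were measured, and in marrow pool 2 none stood 1 log2 unit above the other marrow pools, beside 0.993% of all genes, with a median of 0.10. Between the tissues 0 of the 14 passed and the median was 0.38. F13a1, the coagulation factor chain of monocytes and megakaryocytes, differed by -1.37 (95% interval -2.12 to -0.62, limma adjusted p = 0.297) and Cd68 by -0.71. Csf1r, the receptor for macrophage growth factor, differed by 0.71 and Cx3cr1 by 0.37. The summed linear level of this list ran from 552 to 612 in the lamina propria and from 534 to 641 in the marrow.

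The other marker lists also held 0 genes past the threshold. The medians in marrow pool 2 against the other marrow pools were -0.08 for 13 mast cell, basophil and eosinophil markers, 0.08 for 11 erythroid, -0.01 for 13 T cell, 0.00 for 20 intestinal epithelium and 0.27 for 14 B lineage markers. Of these markers only Igll1 stood at least 1 log2 unit above the mean of the other marrow pools there, beside 0.993% of all genes. Igll1 is a surrogate light chain gene of B cell progenitors. Between the tissues the medians were 0.32 for mast cell, basophil and eosinophil, 0.29 for erythroid, 0.45 for T cell, 0.43 for intestinal epithelium and -0.23 for B lineage markers. The mast cell protease genes Mcpt2 and Mcpt1 differed by 0.61 and 0.42, the eosinophil peroxidase Epx by 0.49, the basophil protease Prss34 by 0.32 and Siglecf by 0.05. Among erythroid genes Epb42 differed by 0.46, the erythropoietin receptor Epor by 0.42, Klf1 by 0.35, Ermap by 0.34 and Slc4a1 by 0.29. The T cell coreceptor genes Cd8a and Cd4 differed by 0.66 and 0.53, Cd3e by 0.64, Cd2 by 0.27 and Cd247 by 0.08. The antimicrobial lectin Reg3b differed by 0.80, the gut transcription factor Cdx1 by 0.76, the goblet cell mucin Muc2 by 0.70 and the keratin Krt8 by 0.45. Among B lineage genes Rag2 differed by -2.35 (limma adjusted p = 0.155), Rag1 by -1.05, Pax5 by -0.62, Dntt, which adds bases at V(D)J junctions, by -0.51 and the surrogate light chain gene Vpreb1 by -0.06. The part of any of these cells in the values of the 10 genes was not tested.

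**Figure D4:**
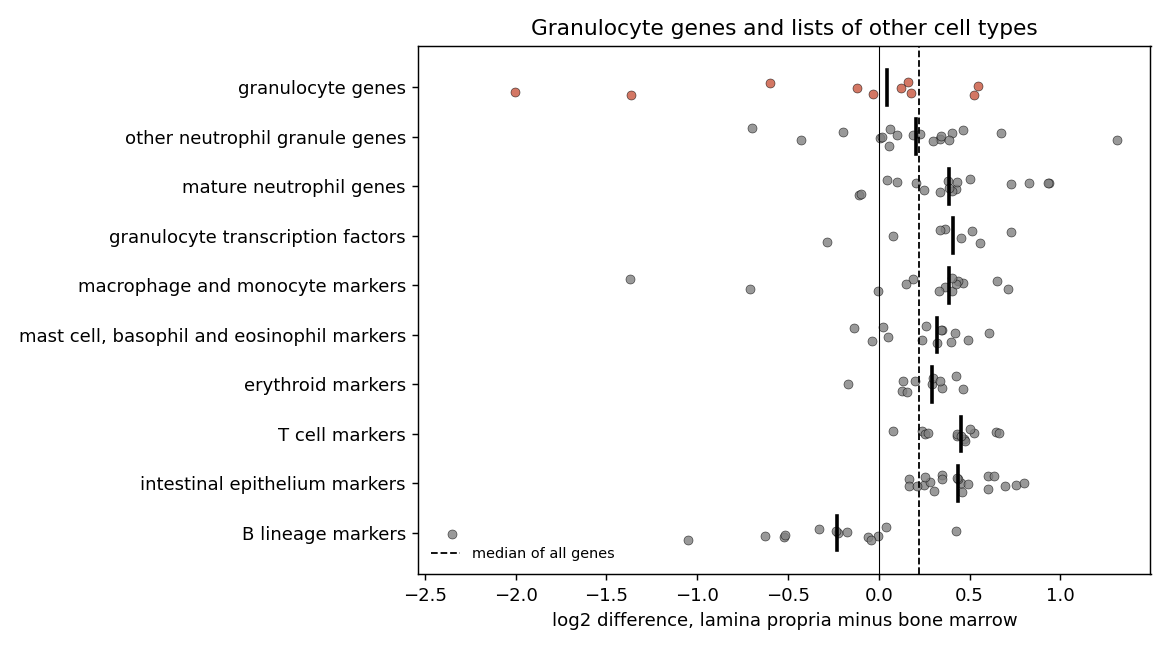
Log2 difference, lamina propria minus bone marrow, of each measured gene (points) in the granulocyte genes (red) and in lists of other neutrophil genes and cell type markers (grey), with the median of each list as a bar and the median of all genes, 0.22, as a dashed line. The granulocyte genes spread from -2.00 to 0.55, and their median of 0.05 lies left of the dashed line, as do those of the other neutrophil granule genes (0.21) and the B lineage markers (-0.23).

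The genes whose pattern over the 6 arrays was most like the mean of the 10 members were sought among 8865 other genes with a range of at least 1 log2 unit. That mean read 5.02, 5.29 and 4.62 in the lamina propria pools and 5.09, 5.85 and 4.76 in the marrow pools. By Pearson r over 6 arrays, the 10 most alike were Gm5617 (0.979), Mir421 (0.973), Mrps10 (0.945), Acrbp (0.944), 2810025M15Rik (0.943), Dclre1b (0.937), Rny3 (0.928), Snrk (0.913), Tmtc4 (0.913) and BC052040 (0.912). None of them is on a list of neutrophil genes used here, but the range cut had removed many listed genes from the search. Among those removed were Lcn2 (range 0.94), Retnlg (0.92) and Chil3 (0.82), so the absence is in part set by the cut. They share the arrays, their scaling and the order of the pools with the members. Within the set, Ltf followed the mean of the other 9 members most closely (r = 0.916), and Prtn3 (r = 0.014) and Elane (r = 0.138) least.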

How the data were processed

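GFP+ cells of 3 lamina propria and 3 bone marrow pools were profiled on 1 array each, from 4.5 to 47 ng of amplified, biotin-labelled total RNA, per the labels. The deposited values are log2, from RMA (Affymetrix Expression Console, version 1.3.0.187, per the submitters' processing notes) with settings not stated there, and were used unchanged. Of 35556 probe sets, 21789 carried exactly 1 symbol in the platform's gene table, 1621 carried several and 12146 were unlisted. The first kind gave 19938 genes, each through the probe set with the highest mean. Genes were grouped by their array level only to describe how differences moved with it, and summed linear levels mix probe sets of unknown relative response.

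Tissues were compared with limma 3.58.1 in R 4.3.3 (lmFit, eBayes, two-sided, no covariate), tested on simulated data first. P-values were adjusted by Benjamini-Hochberg across the genes, with 0.05 as the threshold. They set the tissue difference against the spread between pools, taken as a common variance for both tissues. For some genes the spreads of the tissues differed widely, as for S100a9 (SD 0.18 in the lamina propria and 1.53 in the marrow). The members, lists, tests and alternatives were chosen with earlier results of these data known. Genes named were the members, genes that check the label, in each other list the 3 with the largest absolute difference and the 2 with the highest mean (some met both criteria), the 10 genes most like the members, and others where the text says so. Alternatives were a replicate block, a filter on dim genes, 2 scalings, other variances, array weights, averaged probe sets and left-out arrays. Figures were drawn with matplotlib 3.10.9.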

Additional observations from a re-analysis of the deposited data

How the results depend on the processing

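With 3 pools a tissue and no detection calls, low levels could not be told from background. Over all genes limma called 0 genes, 16 with the pool number as a replicate block, 40 with a trend and robust variances, 5586 with array weights and 0 to 7222 when 1 array was left out, the highest without lamina propria pool 3. At an unadjusted p under 0.05, 2728 genes passed. Of the members, 2 were called with array weights and 0 to 2 when 1 array was left out. The replicate block called none of them (adjusted p = 0.270 for S100a8 and 0.117 for S100a9). Nothing in the labels pairs pools of the same number. Deviations from the tissue means correlated at r = 0.131, 0.051 and 0.226 for pools numbered 1, 2 and 3, and lamina propria pool 2 correlated best with marrow pool 1 (r = 0.133).

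The members' median of 0.05 was -1.30 with the filter on dim genes, which kept 2 members, S100a9 and Ngp, -0.44 without lamina propria pools 1 and 2, -0.17 after quantile normalization and -0.16 to 0.23 when 1 array was left out. Quantile normalization moved the median of all genes to 0.12 against 0.22, and list medians to 0.22 for mature neutrophil genes, 0.19 for macrophages and monocytes, 0.092 for mast cells, basophils and eosinophils and 0.30 for intestinal epithelium. Leaving out 1 array gave 0.12 to 0.26 for other granule genes, 0.20 to 0.49 for mast cells, basophils and eosinophils and 0.13 to 0.40 for erythroid markers, each lowest without lamina propria pool 1. It gave 0.27 to 0.39 for macrophages and monocytes, 0.32 to 0.46 for intestinal epithelium and -0.53 to -0.14 for B lineage markers.

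S100a9 and Ngp kept their signs under all alternatives run, and S100a8 and Prtn3 under all but the filter on dim genes, which removed them. S100a8 ran from -2.13 to -0.43, S100a9 from -2.47 to -1.12 and Ngp from -1.12 to -0.31 when 1 array was left out, S100a8 and S100a9 nearest 0 without marrow pool 2 and Ngp without marrow pool 1. Signs turned for Ctsg after quantile normalization (-0.045), and without lamina propria pools 1 and 2 for Mpo (-0.24), Elane (-0.025), Ctsg (-0.48) and Camp (-0.047). When 1 array was left out, Ctsg ran from -0.15 to 0.43, Ltf from -0.27 to 0.041, Mmp8 from -0.25 to 0.19 and Mpo from -0.068 to 0.41. The filter changed the members' median by keeping only S100a9 and Ngp, and the cause of the other shifts was not tested.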
